A study of Mus musculus with 10 samples.

Results

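The genes described here are Sox4, Klf9, Pim3, Map4k4, Phlda3, Tspan17, Unc119 and Tmsb10, 8 genes chosen by the values of their orthologues in a diet experiment, where they had been read as responding to liver injury. In that experiment hepatocytes of mice given the oncogene cMet and DDC (DDC+Met, 3 libraries) were set against those of mice given cMet alone (Met, 3 libraries). DDC is a dietary compound that injures hepatocytes and bile ducts. The diet tables carry identifiers, nearly all in the form used for human genes, that the mouse annotation used here does not name. Therefore 0 of the 8 genes could be found in them. The values they were chosen by are therefore not given, their response to injury was not examined, and no direction could be set beside the diet experiment. All 8 were found among the 55385 genes of the second experiment and passed its filter on low counts, which 14200 genes did.

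The second experiment compared 2 libraries labelled EP300 KO with 2 labelled EP300 WT. All came from mice of a C57BL/6J 129SV background in which the gene of the coactivator and histone acetyltransferase EP300 is floxed. The EP300 KO mice (genotype EP300-/-) received AAV-TBG-Cre, a virus that expresses the Cre recombinase from a hepatocyte promoter. The EP300 WT mice (genotype EP300f/f) received AAV-TBG-GFP. Both groups shared the DDC diet and the pT3-cMet plasmid, injected into the tail vein, for 5 months, so neither is an uninjured liver. Cre acts in hepatocytes under that promoter, and other cells would keep the gene. Liver cells were sorted after perfusion. The labels mention pooling and name no animal for any library, so the p-values cover the spread among 4 libraries, which may be partly or wholly technical. Animal ages are not given in the sources used here.

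The 8 genes belong to no single pathway. Sox4 and Klf9 encode transcription factors. Sox4 is induced by TGF-beta in many tissues and takes part in bile duct development, and Klf9 is induced by glucocorticoids and thyroid hormone. Pim3 and Map4k4 encode protein kinases. PIM kinases need no activating phosphorylation and are controlled largely through their abundance, whereas Map4k4 acts upstream of JNK and the Hippo pathway. Phlda3 is a p53 target whose product competes with the kinase AKT for membrane lipids. Tspan17 encodes a tetraspanin that partners the protease ADAM10, Unc119 a chaperone that carries lipid-modified proteins to membranes, and Tmsb10 a thymosin that binds actin monomers.

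Total counts were 17709799 and 17811489 in the libraries labelled EP300 KO and 18575701 and 18831671 in those labelled EP300 WT. The targeted gene went against its label. Ep300 averaged 73.0 ± 1.00 CPM in the libraries labelled EP300 KO and 60.1 ± 3.15 CPM in those labelled EP300 WT (SD, n = 2 each). The log2 fold change was 0.28 (SE 0.07, edgeR adjusted p = 0.00498, and 0.128 without EP300 WT replicate 2). A count per gene does not show whether single exons were lost, and directions below are between libraries as labelled. CPM are counts scaled to a common library total, with TMM factors that allow for libraries of unlike composition. Xist, the RNA of the inactive X chromosome, was counted 2310 and 1411 times in the libraries labelled EP300 KO, against 3 and 2 times in those labelled EP300 WT. The Y-linked gene Ddx3y was counted 954 and 813 times in the KO-labelled libraries, against 1079 and 1077 times in the WT-labelled ones. The Y-linked genes Eif2s3y (38.1 CPM in the KO-labelled, 36.5 CPM in the WT-labelled libraries), Kdm5d (14.8 and 13.3 CPM) and Uty (11.9 and 14.5 CPM) were also present under both labels. Neither Ddx3y nor these genes passed. Xist therefore moved with the label while Y-linked genes were counted under both, for a reason that was not tested. No source used here gives the sexes of the animals, and sex and genotype cannot be told apart. Hepatocyte markers were abundant in all 4 libraries, with Alb at 72611 CPM in the KO-labelled and 78219 CPM in the WT-labelled libraries. Of 11 tested, 3 rose and 5 fell, where 16.7% of all tested genes were higher and 17.5% lower. With DESeq2, 2 of these markers rose and 4 fell. The markers summed to 132800 and 139900 CPM in the KO-labelled libraries, against 162000 and 160500 CPM in the WT-labelled ones. Part of that gap was Trf, which averaged 25078 CPM in the KO-labelled and 37367 CPM in the WT-labelled libraries. Annotated genes other than Trf cover 63.5% of its exon sequence. Trf was left out after its values were seen. The sums were then 109000 and 113500 CPM in the KO-labelled libraries, against 124500 and 123300 CPM in the WT-labelled ones.

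Of the 8 genes, Pim3 rose in the libraries labelled EP300 KO, and Sox4, Unc119, Map4k4 and Tmsb10 fell. Tspan17, Phlda3 and Klf9 did not pass. A gene passed when its p from edgeR's quasi-likelihood test, adjusted over all genes tested, was below 0.05. Across all tested genes 34.2% passed, 16.7% higher and 17.5% lower, so 5 of 8 is to be read against a comparison in which such calls are common. The median log2 fold change (log2 of the KO-labelled over the WT-labelled level) was -0.40 over the 8 genes and -0.01 over all tested genes. The libraries of the 2 labels did not overlap for 4 genes that were lower and 2 that were higher in the KO-labelled libraries. Of all tested genes, 66.4% did not overlap, 33.5% being lower and 32.9% higher. Without replicate 1 or replicate 2 of EP300 KO, 2 of the 8 genes rose, Tspan17 joining Pim3 in the first case and Klf9 in the second.

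**Figure D1:**
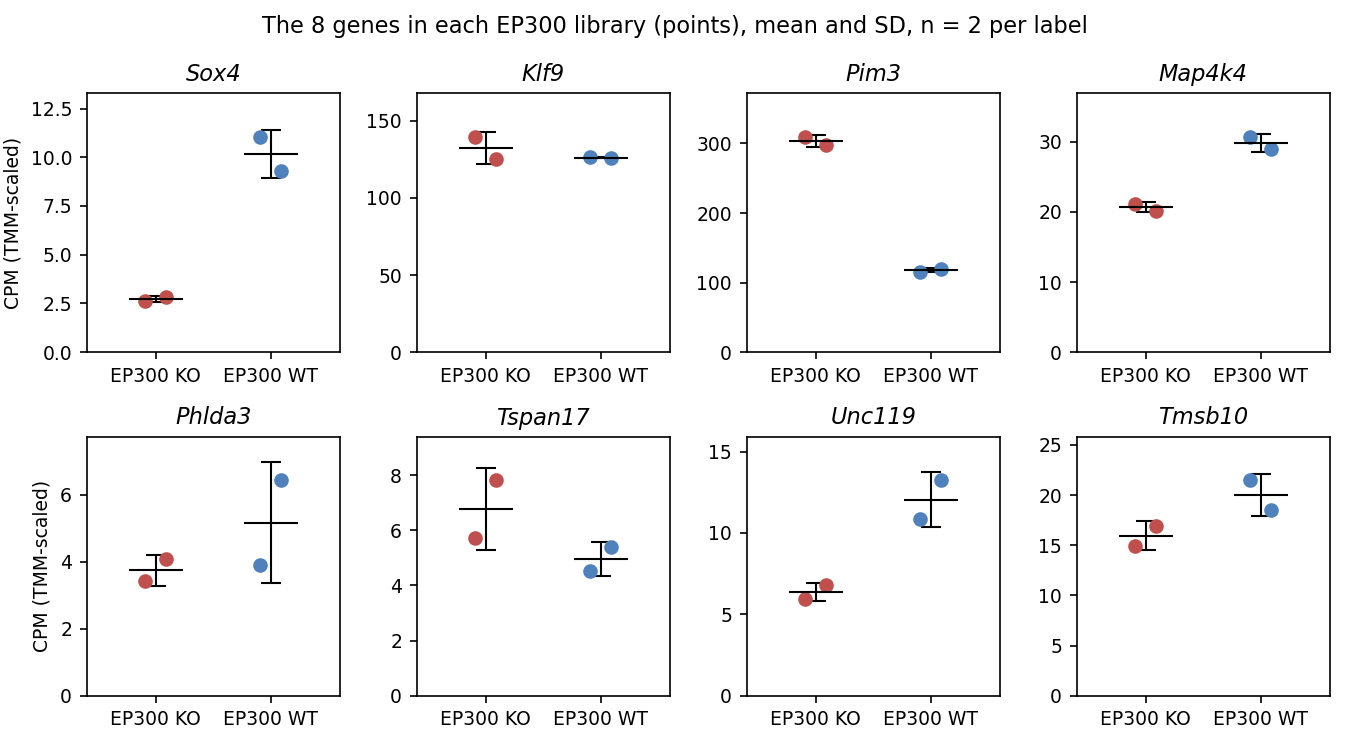
TMM-scaled CPM (y axis, from 0) of each of the 8 genes in the libraries labelled EP300 KO (left) and EP300 WT (right). Points are libraries, and lines are the mean and SD of 2. Sox4 lies at 2.60 and 2.82 CPM in the KO-labelled libraries against 11.1 and 9.30 CPM in the WT-labelled libraries, while the Klf9 libraries overlap.

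Levels within a library were compared as CPM per kilobase of exon. Pim3 was the most abundant of the 8, at 125 CPM per kilobase in the KO-labelled and 48.5 CPM per kilobase in the WT-labelled libraries. Its percentile among tested genes was 97.7 under the KO label and 94.7 under the WT label. Klf9 came next, at 27.5 CPM per kilobase in the KO-labelled and 26.2 CPM per kilobase in the WT-labelled libraries. Tmsb10 followed at 12.5 CPM per kilobase in the KO-labelled and 15.7 CPM per kilobase in the WT-labelled libraries. Sox4 had the lowest level of the 8, at 0.565 CPM per kilobase in the KO-labelled and 2.12 CPM per kilobase in the WT-labelled libraries. Between them, Tspan17 stood above Unc119 in the KO-labelled libraries (4.09 against 2.60 CPM per kilobase). In the WT-labelled libraries Unc119 stood at 4.92 CPM per kilobase and Tspan17 came below it, after Phlda3 (3.32) and Map4k4 (3.12). Neighbours in this order overlapped from Unc119 to Phlda3 and from Phlda3 to Map4k4 in the KO-labelled libraries. In the WT-labelled libraries they overlapped from Phlda3 to Map4k4 and from Map4k4 to Tspan17.

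Sox4 (ENSMUSG00000076431, chromosome 13, 28948919 to 28953713, mm10, minus strand) was counted 45 and 49 times in the libraries labelled EP300 KO, against 210 and 179 times in those labelled EP300 WT. The corresponding levels were 2.60 and 2.82 CPM in the KO-labelled libraries, against 11.1 and 9.30 CPM in the WT-labelled ones. The KO-labelled libraries were both lower, by several times the spread within a label. Sox4 averaged 2.71 ± 0.150 CPM in the KO-labelled and 10.2 ± 1.24 CPM in the WT-labelled libraries (SD, n = 2 each), a difference of -1.91 on the log2 scale (SE 0.18, edgeR adjusted p = 6.28e-07). This was the largest fall of the 8, with 1.65% of tested genes at or below it, and it passed under every alternative run. In bulk RNA, fewer cells of a type and less RNA per cell cannot be told apart. Of its exon bases, 54.6% overlap the noncoding RNA Gm26735 on the opposite strand in GENCODE M21. The library kit does not mark strand, so reads of Sox4 and Gm26735 in that stretch cannot be told apart.

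The Sox4 promoter is printed because the gene fell most among the 8, and that of Pim3, which rose, for comparison. Both windows run from 250 bases before to 50 bases after the start, 5′ to 3′ on the gene's strand, from RefSeq on GRCm38.p6 (mm10). Sox4 is chr13:28953650-28953949 (minus strand) and Pim3 is chr15:88861944-88862243 (plus strand). Capitals mark matches on either strand to the CCAAT box (CCAAT) and the GC box (GGGCGG).
Sox4: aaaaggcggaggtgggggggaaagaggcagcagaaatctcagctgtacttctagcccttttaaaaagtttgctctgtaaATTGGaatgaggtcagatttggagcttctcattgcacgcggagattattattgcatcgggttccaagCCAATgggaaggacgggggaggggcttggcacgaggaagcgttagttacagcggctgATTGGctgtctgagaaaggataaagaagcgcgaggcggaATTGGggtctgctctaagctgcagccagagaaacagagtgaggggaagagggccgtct
Pim3: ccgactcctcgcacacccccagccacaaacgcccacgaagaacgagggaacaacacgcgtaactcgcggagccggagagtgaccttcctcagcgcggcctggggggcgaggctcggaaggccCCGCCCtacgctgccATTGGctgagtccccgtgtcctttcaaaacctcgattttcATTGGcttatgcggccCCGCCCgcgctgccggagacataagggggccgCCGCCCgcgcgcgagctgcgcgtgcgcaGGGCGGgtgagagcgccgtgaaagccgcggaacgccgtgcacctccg
The Sox4 window held 4 CCAAT and 0 GC box matches, and the Pim3 window 2 CCAAT and 4 GC box matches. No match overlapped another. Of 32851 RefSeq promoter windows of the same length, 37.4% held a CCAAT match and 35.7% a GC box match. The TATA box (TATAAA) and the core of the CREB site (TGACG) had 0 matches in either window, and 13.6% and 20.8% of all windows held them. RefSeq windows were found for 7 of the 8 genes, Map4k4 being the exception.

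A list of 10 SOX factors, which includes Sox4, held changes both ways. Of the 9 tested, 3 fell, Sox4 among them, and 1 rose. Over all tested genes 17.5% were lower and 16.7% higher. The list's median log2 fold change, Sox4 included, was -0.40 (-0.01 over all tested genes). Sox12, the closest tested relative of Sox4, rose to 6.54 and 7.24 CPM in the KO-labelled libraries, against 2.84 and 2.81 CPM in the WT-labelled libraries (log2 fold change 1.28, SE 0.19, edgeR adjusted p = 7.82e-05). The third member of that subgroup, Sox11, had 0 and 0 counts in the KO-labelled libraries, against 2 and 0 in the WT-labelled ones. Sox9, which marks bile ducts and progenitors and is also on the biliary list, fell by 0.78 (SE 0.16) and Sox18, an endothelial factor, by 0.80 (SE 0.17) on the log2 scale.

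Genes of the TGF-beta response mostly fell in the same libraries. Of 15 tested, 8 fell and 1 rose, where 17.5% of all tested genes were lower and 16.7% higher. The list's median log2 fold change was -0.42 (-0.01 over all tested genes). Without EP300 WT replicate 2 the number that fell was 5. Ccn2 fell by 1.08 (SE 0.10) and the receptor gene Tgfbr2 by 0.65 (SE 0.07), both on the log2 scale, with 23.2% of Ccn2 exon bases shared with another gene. Smad7, an inhibitor of the pathway, rose to 46.6 CPM in the KO-labelled libraries, against 20.3 CPM in the WT-labelled libraries. The 2 genes whose profile over the 4 libraries was closest to that of Sox4, by Euclidean distance of centred log2 CPM, were Galnt18 (distance 0.0656) and Tcf7 (distance 0.0765).

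Markers of other cell types that also express Sox4 or Tmsb10 moved in the same comparison. Of 9 biliary markers tested, 4 fell and 1 rose (median log2 fold change -0.25), where 17.5% of all tested genes were lower and 16.7% higher. Their summed level was 217 and 234 CPM in the KO-labelled libraries, against 373 and 367 CPM in the WT-labelled ones. Without Cdh1, left out after its values were seen, the sums were 137.5 and 143 CPM in the KO-labelled libraries, against 208 and 212 CPM in the WT-labelled ones. Besides Sox9, the markers that fell were Prom1 (8.70 CPM in the KO-labelled and 45.9 CPM in the WT-labelled libraries), Cdh1, which hepatocytes also express (85.6 CPM in the KO-labelled and 160.0 CPM in the WT-labelled libraries), and Spp1 (95.7 CPM in the KO-labelled and 127 CPM in the WT-labelled libraries). Cldn4, a tight junction gene, rose to 8.02 CPM in the KO-labelled libraries, against 3.30 CPM in the WT-labelled ones. The duct keratin gene Krt19 averaged 0.634 CPM in the KO-labelled and 0.602 CPM in the WT-labelled libraries, Epcam averaged 1.33 CPM under both labels, and neither passed. Of 12 stellate and fibroblast markers 6 fell, and their summed level was 200 and 192 CPM in the KO-labelled libraries, against 307 and 299 CPM in the WT-labelled ones. Most of that gap was Reln, which encodes a secreted matrix glycoprotein and averaged 31.9 CPM in the KO-labelled and 115.9 CPM in the WT-labelled libraries. Without Reln, left out after its values were seen, the sums were 169.5 and 159 CPM in the KO-labelled libraries, against 188 and 186 CPM in the WT-labelled ones. Of 12 endothelial markers 7 fell, from a list whose summed level was 345 and 311 CPM in the KO-labelled libraries, against 406 and 398 CPM in the WT-labelled ones. Macrophage markers went both ways, with 3 of 12 higher and 3 lower, and summed to 1003 and 1016 CPM in the KO-labelled libraries, against 1113 and 1097 CPM in the WT-labelled ones. Without Cd5l, likewise left out after its values were seen, the macrophage sums were 851 and 854 CPM in the KO-labelled libraries, against 861 and 841 CPM in the WT-labelled ones. Of 3 lymphocyte markers tested 2 fell (summed level 21.2 and 19.5 CPM in the KO-labelled, 32.9 and 31.0 CPM in the WT-labelled libraries). Of 5 neutrophil markers tested 3 fell (11.3 and 9.71 CPM in the KO-labelled, 15.8 and 17.4 CPM in the WT-labelled libraries). No marker of these lists was at 0 in all 4 libraries. Leaving out a WT-labelled library lowered several counts: without replicate 1 and without replicate 2 of EP300 WT, 2 and 3 stellate and 3 and 5 endothelial markers fell, and the lymphocyte, neutrophil and macrophage counts were lower too. The part of these cells in the falls of Sox4 and Tmsb10 was not tested.

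Klf9 (ENSMUSG00000033863, chromosome 19, 23141226 to 23168134, plus strand) was at 139.8 and 125 CPM in the KO-labelled libraries, against 127 and 126 CPM in the WT-labelled ones. The libraries of the 2 labels overlapped. Its means were 132 ± 10.3 CPM in the KO-labelled and 126 ± 0.591 CPM in the WT-labelled libraries (SD, n = 2 each), a difference of 0.07 on the log2 scale (SE 0.07, edgeR adjusted p = 0.456). Replicate 1 of EP300 KO decided the sign, since the value was -0.000106 without it and 0.15 without replicate 2 of EP300 KO, where it passed (adjusted p = 0.0360). Its relative Klf13, a repressor that binds similar sites, rose by 0.38 (SE 0.07, edgeR adjusted p = 0.000639), and this call ended without EP300 WT replicate 2 (adjusted p = 0.0620).

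Of 13 KLF factors tested 3 rose and 2 fell, with a median log2 fold change of 0.00. Over all tested genes 16.7% were higher and 17.5% lower. Klf15, a regulator of amino acid and glucose metabolism, rose to 229 CPM in the KO-labelled libraries against 156 CPM in the WT-labelled libraries (log2 fold change 0.55, SE 0.06). Klf6, an early gene of liver injury, fell by 0.68 (SE 0.08) and Klf12, a repressor, by 0.47 (SE 0.10), the second call ending without either WT-labelled library. Klf1, an erythroid factor, rose by 1.22 (SE 0.26), a call that ended without EP300 WT replicate 2 and without a filter on low counts. Without EP300 WT replicate 2 the number that rose was 1, and without either WT-labelled library the number that fell was 1.

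Genes known to respond to glucocorticoids, the class Klf9 belongs to, went up more often than down. Of 15 tested, 9 rose and 4 fell, where 16.7% of all tested genes were higher and 17.5% lower. The list's median log2 fold change was 0.36 (-0.01 over all tested genes). Tat, which degrades tyrosine, averaged 3834 CPM in the KO-labelled and 2060 CPM in the WT-labelled libraries (log2 fold change 0.90, SE 0.05). Angptl4 (0.81, SE 0.06) and Pck1, a gluconeogenic enzyme gene (0.70, SE 0.04), also rose. Igfbp1, which encodes a binding protein for insulin-like growth factors, fell to 411 CPM in the KO-labelled libraries, against 2321 CPM in the WT-labelled libraries (log2 fold change -2.50, SE 0.05). The receptor gene Nr3c1 fell by 0.29 (SE 0.07), a call lost without either WT-labelled library (adjusted p = 0.0569 without replicate 1 and 0.0911 without replicate 2). The counts were 7 and 5 genes higher and 1 and 1 lower without replicates 1 and 2 of EP300 WT.

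Pim3 (ENSMUSG00000035828, chromosome 15, 88862186 to 88865726, plus strand) had 5354 and 5173 counts in the libraries labelled EP300 KO and 2198 and 2301 in those labelled EP300 WT. Its levels were 309.8 and 297 CPM in the KO-labelled libraries, against 116 and 119.6 CPM in the WT-labelled ones. Both KO-labelled libraries were more than 2-fold above both WT-labelled ones. Pim3 averaged 304 ± 8.84 CPM in the KO-labelled and 118 ± 2.71 CPM in the WT-labelled libraries (SD, n = 2 each), a difference of 1.37 on the log2 scale (SE 0.06, edgeR adjusted p = 5.20e-11) or 2.58-fold. With a library left out the log2 fold change ran from 1.35 to 1.40, and it passed each time. None of its 2423 distinct 50-base transcript words occurred in another gene's transcript.

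The other PIM kinases did not pass. Pim1 stood at 34.1 and 26.5 CPM in the KO-labelled libraries, against 26.3 and 27.1 CPM in the WT-labelled ones, which overlapped (log2 fold change 0.18, SE 0.11, edgeR adjusted p = 0.210). It passed without EP300 KO replicate 2 (0.36, adjusted p = 0.00117). Pim2 had a log2 fold change of 0.13 (SE 0.18). Of 10 PIM kinases and STAT target genes, Pim3 included, 2 rose, Pim3 among them, and 3 fell (median log2 fold change 0.11). Over all tested genes 16.7% were higher and 17.5% lower. Bcl6, a transcriptional repressor, rose to 48.7 CPM in the KO-labelled libraries against 6.62 CPM in the WT-labelled libraries (2.88, SE 0.12). Socs2, a feedback inhibitor of growth hormone signalling, fell to 24.8 and 27.2 CPM in the KO-labelled libraries, against 78.2 and 79.0 CPM in the WT-labelled ones (SE of the log2 fold change 0.08), while Cish, a feedback inhibitor of cytokine receptors, fell by 0.53 (SE 0.09) on the log2 scale. The genes closest in profile to Pim3 were Usp2, a deubiquitinase gene (distance 0.0610), and Slc25a51, a mitochondrial carrier gene (distance 0.0707).

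Both coding neighbours of Pim3 that were tested also rose. Creld2, an endoplasmic reticulum stress gene 35.5 kb to its left, rose by 1.13 on the log2 scale (SE 0.07, edgeR adjusted p = 4.94e-09), with 81.4 and 79.8 CPM in the KO-labelled libraries, against 35.5 and 38.0 CPM in the WT-labelled ones. Ttll8, a tubulin ligase gene 24.9 kb to its right, rose by 1.64 (SE 0.29, edgeR adjusted p = 0.000388) at low counts. At none of the other 7 genes did both neighbours pass. Over all tested genes 34.2% passed, 16.7% higher and 17.5% lower. Cdhr2 beside Tspan17 fell by 1.87 (SE 0.41) and Cemip2 beside Klf9 by 0.32 (SE 0.09), though neither listed gene passed. The call of Cemip2 ended under settings that included DESeq2 (adjusted p = 0.0754). Slc46a1 beside Unc119 and Suclg1 beside Tmsb10 rose by 0.40 (SE 0.09) and 0.42 (SE 0.07) while the listed genes fell. The call of Slc46a1 ended without EP300 WT replicate 2 and without a filter on low counts. Rnf149 rose by 0.42 (SE 0.07) beside Map4k4, which fell, with 24.9% of the Rnf149 exon sequence overlapped by another gene.

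Map4k4 (ENSMUSG00000026074, chromosome 1, 39900913 to 40026310, plus strand) stood at 21.2 and 20.2 CPM in the KO-labelled libraries, against 30.8 and 28.9 CPM in the WT-labelled ones. The 2 labels did not overlap. It averaged 20.7 ± 0.711 CPM in the KO-labelled and 29.8 ± 1.28 CPM in the WT-labelled libraries (SD, n = 2 each), a difference of -0.53 on the log2 scale (SE 0.09, edgeR adjusted p = 0.000245), and passed under every alternative run. Its relative Tnik, a kinase of the Wnt pathway, fell by 0.97 (SE 0.22, edgeR adjusted p = 0.00229, and 0.0530 without EP300 WT replicate 1). Mink1, the other close relative, stood at 90.0 ± 1.21 CPM in the KO-labelled and 93.6 ± 0.861 CPM in the WT-labelled libraries (log2 fold change -0.06, SE 0.06, edgeR adjusted p = 0.537).

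Of 14 MAP4K and JNK pathway genes, 3 fell, Map4k4 and Tnik among them, and 11 did not pass. The median log2 fold change was -0.07, and 17.5% of all tested genes were lower. The third that fell was Map4k3 (-0.26, SE 0.08), whose call ended with DESeq2, without a filter on low counts, and without EP300 KO replicate 2 or either WT-labelled library. Jun averaged 654 CPM in the KO-labelled and 679 CPM in the WT-labelled libraries and did not pass. Without replicates 1 and 2 of EP300 WT, 1 and 2 of the list fell. The profile closest to that of Map4k4 was that of Fgfr2, a growth factor receptor gene (distance 0.0268).

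**Figure D2:**
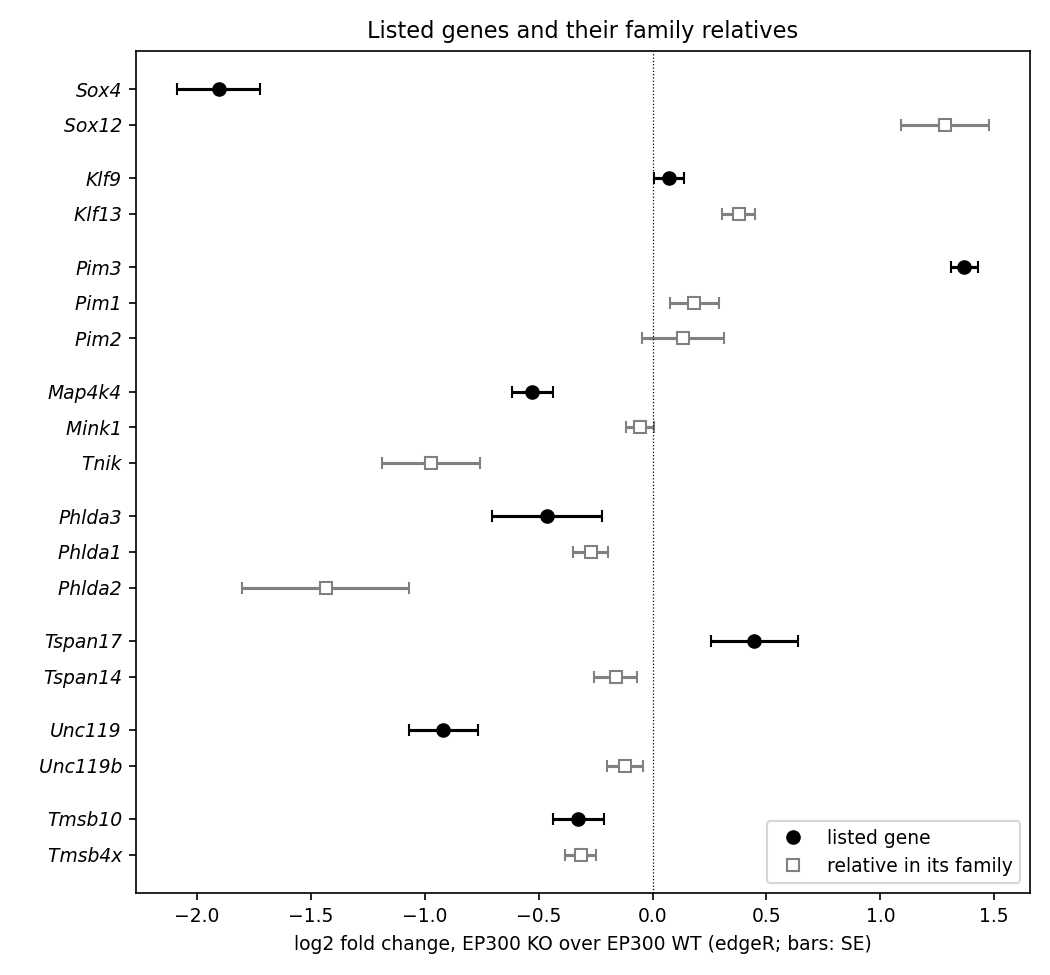
Log2 fold change of the KO-labelled over the WT-labelled libraries (x axis) for each listed gene (filled circles) and its tested relatives (open squares), from edgeR, with SE as bars. Sox4 (-1.91) and Sox12 (1.28) lie on opposite sides of 0, and Tmsb10 (-0.33) and Tmsb4x (-0.32) lie together.

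Phlda3 (ENSMUSG00000041801, chromosome 1, 135766119 to 135769136, plus strand) stood at 3.41 and 4.08 CPM in the KO-labelled libraries, against 3.90 and 6.44 CPM in the WT-labelled ones. The 2 labels overlapped, and replicate 2 of EP300 WT stood above the other 3 libraries. Its means were 3.75 ± 0.471 CPM in the KO-labelled and 5.17 ± 1.80 CPM in the WT-labelled libraries (SD, n = 2 each), a difference of -0.46 on the log2 scale (SE 0.24, edgeR adjusted p = 0.157). The value was -0.04 without EP300 WT replicate 2 and -0.78 without EP300 WT replicate 1, and it passed in neither. It was counted 59 to 124 times a library. On a list of 3 whose median, -0.46, is the value of Phlda3 itself, both of its relatives fell. Lower calls made up 17.5% of all tested genes. Phlda2, an imprinted growth regulator, fell by 1.44 (SE 0.37) at 10 to 41 counts a library and Phlda1 by 0.27 (SE 0.08). Both calls ended without either WT-labelled library and without a filter on low counts, and that of Phlda1 also without EP300 KO replicate 1.

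Of 24 p53 targets tested, Phlda3 included, 4 rose, 4 fell and 16 did not pass, with a median log2 fold change of -0.09. These counts lie near the shares over all tested genes, 16.7% higher and 17.5% lower. Scaling by library size alone gave 4 that rose and 8 that fell. Cdkn1a, the cell cycle inhibitor, averaged 38.8 CPM in the KO-labelled and 44.6 CPM in the WT-labelled libraries, and Mdm2, the p53 ligase, 42.5 CPM in the KO-labelled and 42.8 CPM in the WT-labelled libraries. Neither passed. Btg2, an antiproliferative gene, fell to 175 CPM in the KO-labelled libraries, against 361 CPM in the WT-labelled libraries (-1.04, SE 0.06), and the apoptosis gene Bbc3 fell by 0.63 (SE 0.14). Tnfrsf10b, a death receptor gene, fell by 0.98 (SE 0.21) and Psrc1, a spindle protein gene, by 1.14 (SE 0.32) at low counts. Without EP300 WT replicate 2 the calls of Bbc3, Tnfrsf10b and Psrc1 ended, and without EP300 WT replicate 1 that of Psrc1. The call of Bbc3 also ended without a filter on low counts, and that of Psrc1 with DESeq2. The number that rose was 2 without EP300 WT replicate 2, and the number that fell was 7 without EP300 KO replicate 1 and 1 without EP300 WT replicate 2.

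Unc119 (ENSMUSG00000002058, chromosome 11, 78343482 to 78349164, plus strand) stood at 5.96 and 6.78 CPM in the KO-labelled libraries, against 10.8 and 13.3 CPM in the WT-labelled ones. The 2 labels did not overlap. Its means were 6.37 ± 0.581 CPM in the KO-labelled and 12.0 ± 1.70 CPM in the WT-labelled libraries (SD, n = 2 each), a difference of -0.92 on the log2 scale (SE 0.15, edgeR adjusted p = 0.000178). It passed under every alternative run. Unc119b, its paralogue, stood at 34.7 ± 1.67 CPM in the KO-labelled and 37.7 ± 0.127 CPM in the WT-labelled libraries (log2 fold change -0.12, SE 0.08, edgeR adjusted p = 0.269).

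Of 7 genes for the release and transport of UNC119 cargo, Unc119 itself and Arl13b fell and 5 did not pass (median log2 fold change -0.24). The list includes Unc119, and 17.5% of all tested genes were lower. Arl13b, a ciliary GTPase gene, fell to 6.95 CPM in the KO-labelled libraries, against 11.5 CPM in the WT-labelled libraries (-0.73, SE 0.14). Arl3, whose GTPase frees UNC119 cargo, averaged 9.60 CPM in the KO-labelled and 8.94 CPM in the WT-labelled libraries and did not pass. The profile closest to that of Unc119 was that of C2cd4c (distance 0.0730), followed by the mitotic kinase gene Aurka (distance 0.0823), both at under 4 CPM on average under either label.

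Tspan17 (ENSMUSG00000025875, chromosome 13, 54789377 to 54796776, plus strand) stood at 5.73 and 7.82 CPM in the KO-labelled libraries, against 4.53 and 5.40 CPM in the WT-labelled ones. Both KO-labelled libraries were higher, though replicate 1 of EP300 KO exceeded replicate 2 of EP300 WT by little. The means were 6.77 ± 1.48 CPM in the KO-labelled and 4.97 ± 0.619 CPM in the WT-labelled libraries (SD, n = 2 each), a difference of 0.45 on the log2 scale (SE 0.19, edgeR adjusted p = 0.0874). It passed without EP300 KO replicate 1 (0.66, adjusted p = 0.00485), and was 0.21 without EP300 KO replicate 2.

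Of 6 tested genes of ADAM10 and its tetraspanin partners, 3 fell and 3 did not pass, with a median log2 fold change of -0.36. Lower calls made up 17.5% of all tested genes. Tspan15 fell by 0.66 (SE 0.13), Tspan33 by 0.42 (SE 0.14) and Adam10, the protease gene, by 0.29 (SE 0.08). Tspan14 did not pass (-0.16, SE 0.09, edgeR adjusted p = 0.209). Without either WT-labelled library 1 of the list fell, since the calls of Tspan33 and Adam10 ended. Tspan33 also did not pass without EP300 KO replicate 2 or with DESeq2, and neither Tspan33 nor Adam10 passed without a filter on low counts.

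Tmsb10 (ENSMUSG00000079523, chromosome 6, 72957347 to 72958748, minus strand) stood at 14.9 and 17.0 CPM in the KO-labelled libraries, against 21.5 and 18.5 CPM in the WT-labelled ones. The 2 labels did not overlap. Its means were 15.9 ± 1.43 CPM in the KO-labelled and 20.0 ± 2.11 CPM in the WT-labelled libraries (SD, n = 2 each), a difference of -0.33 on the log2 scale (SE 0.11, edgeR adjusted p = 0.0346). This call ended with DESeq2, without a filter on low counts, and without EP300 KO replicate 1, EP300 WT replicate 1 or EP300 WT replicate 2. Of its 50-base transcript words, 27.0% also occur in transcripts of near-identical copies such as Gm9844 and Gm3787, so its count is uncertain. Those 2 copies had 20 counts or fewer in any library. The closest profiles were those of Chst13 (distance 0.0242), which did not pass, and Ccdc71 (distance 0.0276).

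Tmsb4x, the more abundant thymosin of actin monomers, fell alongside it, with 82.8 ± 5.44 CPM in the KO-labelled and 103 ± 4.32 CPM in the WT-labelled libraries (SD, n = 2 each; log2 fold change -0.32, SE 0.07, edgeR adjusted p = 0.00197). That call ended without EP300 WT replicate 2 and without a filter on low counts. Of a list of 13 genes, made up of actins, actin-binding genes and Stmn1, 5 fell, Tmsb10, Tmsb4x and Stmn1 among them. On that list 1 rose and 7 did not pass (median log2 fold change -0.11). Lower calls made up 17.5% and higher calls 16.7% of all tested genes. Stmn1, a tubulin regulator on that list, fell by 0.95 (SE 0.15) and Twf1, which caps filaments and binds monomers, by 0.43 (SE 0.07). Gsn, a filament-severing protein, rose by 0.44 (SE 0.16, edgeR adjusted p = 0.0436). The call of Gsn ended with DESeq2, under library size scaling, without a filter, and without any 1 of EP300 KO replicate 1, EP300 WT replicate 1 and EP300 WT replicate 2. Without replicates 1 and 2 of EP300 WT, 3 and 2 of the list fell.

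**Figure D3:**
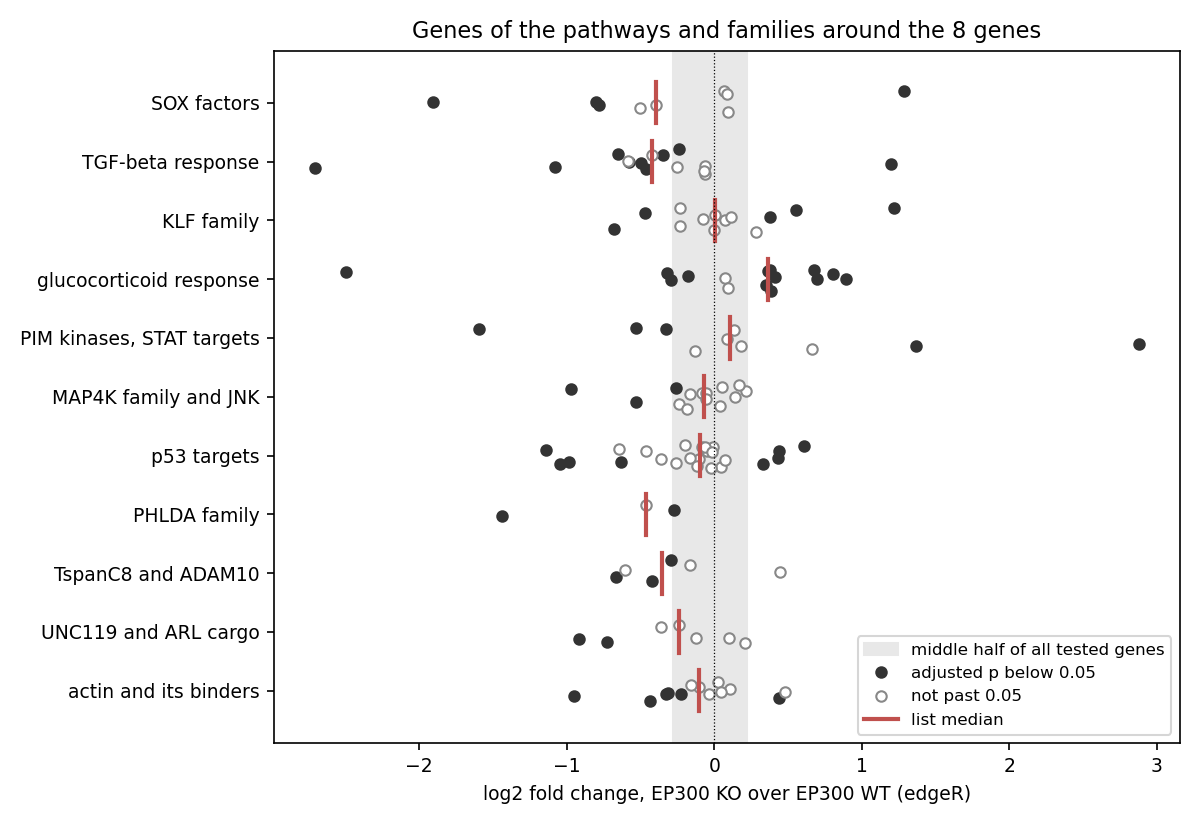
Log2 fold change of the KO-labelled over the WT-labelled libraries (x axis, edgeR) for every tested gene of each family or pathway list (rows). Filled points passed at an adjusted p below 0.05, open points did not, red lines are list medians, and the grey band runs from the lower to the upper quartile of all tested genes. The TGF-beta response has a median of -0.42 and the glucocorticoid response one of 0.36.

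**Figure D4:**
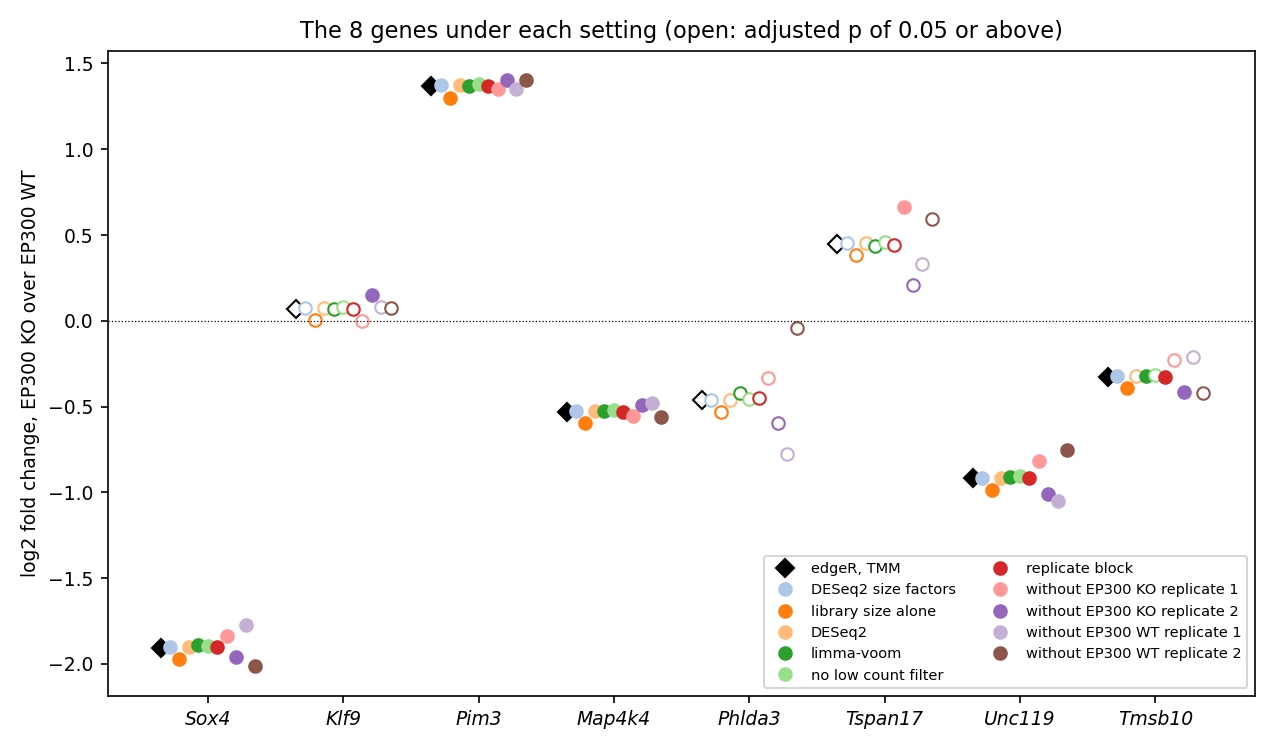
Log2 fold change of each listed gene (y axis) with edgeR and TMM scaling (diamonds) and under each alternative (circles). Open symbols have an adjusted p of 0.05 or above. Sox4, Pim3, Map4k4 and Unc119 are filled throughout, and Tmsb10 is open in 5 of 10 alternatives.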

How the data were processed

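RNA-seq counts of sorted liver cells were analysed. The deposited values are raw counts of reads per gene, with 1 table for the EP300 experiment and 6 per-sample tables for the diet experiment. Per the submitters' processing notes, STAR, HTSeq and DESeq2 were used with mm10, and roles and versions are not stated; annotation and strand setting are not given in the sources used here. In the EP300 table, 4 columns of no listed sample were left out. Symbols were matched for 55144 of its 55385 identifiers, and positions come from GENCODE M21.

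Of 57820 identifiers in each diet table, 57773 begin with ENSG and a digit, the form used for human genes, and 0 matched the mouse annotation. Between 116010 and 358269 reads a library were counted to them, with 98.2% to 99.2% unmapped. The fit, comparisons and alternatives planned for the diet experiment were therefore not run.

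EP300 counts were tested with edgeR 4.0.16 (R 4.3.3; quasi-likelihood, TMM, filterByExpr with a minimum count of 10, label as the only term, 2 residual degrees of freedom) with Benjamini-Hochberg adjustment over all 14200 genes. The SE was taken as |log2 fold change|/√F. Alternatives were DESeq2 1.42.0, limma-voom (limma 3.58.1), other scalings, no filter, a replicate block, and omission of each library in turn. With a library left out, the lone library of its label is assumed to vary like the others. Scripts were tested on simulated counts. Replicates differed by more than sampling noise (chi-square per degree of freedom 5.94 in EP300 KO and 2.72 in EP300 WT).

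The 8 genes, and the lists around them, were chosen with earlier results of these data known. Named genes were the 8, fixed family relatives, up to 4 passing genes per list with the largest changes at 1 CPM or more, and the 2 closest profiles per passing gene (pseudocount 0.1 CPM). Cdkn1a, Mdm2, Jun, Arl3, Nr3c1, Alb, Trf, Ep300, Xist, Ddx3y, Eif2s3y, Kdm5d, Uty, Krt19, Epcam, Prom1, Cdh1, Spp1, Cldn4, Reln and Cd5l, and the coding neighbours, were added after the data were seen. Of the genes this rule names, 2 are not reported here.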

Additional observations from a re-analysis of the deposited data

How the results depend on the processing

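The direction of 7 of the 8 genes held in all 10 alternatives; Klf9 had a log2 fold change of -0.000106 without EP300 KO replicate 1. Over the fits without 1 library each, Klf9 ran from -0.000106 to 0.15, Tspan17 from 0.21 to 0.66 and Tmsb10 from -0.42 to -0.21. Tmsb10 did not pass with DESeq2 (-0.32, adjusted p = 0.163) or without a filter on low counts (-0.31, adjusted p = 0.197). Its adjusted p ran from 0.00333 to 0.365 over all alternatives. Genes that rose among the 8 numbered 1 to 2 with a library left out. Over all genes, 4851 passed; 2703 did without a filter (1416 higher and 1287 lower). With DESeq2 3270 passed, of which 1614 were lower, against 2485 with edgeR. With a library left out, 2306 to 5154 passed, 1160 to 2574 higher and 1146 to 2580 lower. The cause was not tested, beyond that such a fit has fewer libraries. Kcmf1 log2 fold change was -0.0317 with library size alone (0.03 with TMM), and Smc5 log2 fold change lay between -0.11 and 0.0722 when 1 library was omitted, at 0.01 without EP300 KO replicate 1; neither passed. Of 112 other genes recomputed, 14 lost their call with DESeq2, 30 without a filter, 26 without EP300 WT replicate 1 and 41 without EP300 WT replicate 2. Library size scaling shifted the median of all genes to -0.07.

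Replicate numbers did not pair the libraries: deviations of the libraries numbered 1 correlated at -0.00075. With the replicate block 5190 genes passed, 2526 higher and 2664 lower, and no call among the 8 genes changed. Sox4, Phlda3 and Tspan17 had under 100 counts in some library, and what that depth limits was not tested.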
